A study of Mus musculus with 24 samples.

Results

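The 10 genes described here are genes of the 2-cell-like state of mouse embryonic stem (ES) cells, namely Zfp352, Obox6, Tdpoz2, Tdpoz3, Usp17la, Usp17lc, Tcstv3, Eif4a3l1, Pramel19 and Pramel20. They are 10 of 19938 genes measured by a probe set annotated to 1 symbol only, and the set with the highest mean over the 24 arrays stands for each gene. They were picked from the genes most reduced in undifferentiated cells with the Prmt1 knockdown, where they ranked between 1 and 31 by the size of the decrease among all 19938 genes. Comparisons that use the undifferentiated arrays are therefore a description of these genes and carry no test.

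The study used D3, a mouse ES cell line, in a form that carried a Prmt1 knockdown (siPRMT1) and in a form that carried a scrambled control sequence (siSCR). Prmt1 encodes the main enzyme that places asymmetric dimethyl marks on arginine. Each form was sampled in 4 states, giving 8 groups of 3 arrays: undifferentiated cells, embryoid bodies of day 4, and day 4 embryoid bodies given DMSO or 5 micromol all-trans retinoic acid (ATRA) for 12 h. Embryoid bodies are aggregates that begin to differentiate, and here they formed without the cytokine LIF. All cells had been passaged without feeder cells on gelatin, the labels call the arrays of a group biological replicates, and the sources used here do not give whether the knockdown was stable or came from more than 1 clone.

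A few cells in an ES culture pass for a short time into a state in which genes of the 2-cell embryo are switched on, the stage at which the mouse embryo starts to transcribe its own genome. The transcription factor DUX, the ZSCAN4 proteins and transcripts driven by the MERVL retrovirus mark this state, and many of its genes lie in families of close copies. The RNA measured here came from whole cultures, so fewer cells in the state and less RNA per cell cannot be told apart.

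RefSeq (GRCm38.p6) gave an upstream sequence for 6 of the 10 genes and none for Obox6, Tcstv3, Tdpoz2 and Tdpoz3. The 250 bases before the start of the gene are shown for Zfp352 and Eif4a3l1, because they hold the string TAATCC, and for Usp17la and Usp17lc, because they show how alike the copies of a family are. Sequences run 5′ to 3′ on the gene's strand, which is the plus strand for all 4, and capitals mark TAATCC on either strand in the first pair and TATAAA in the second pair.
Zfp352: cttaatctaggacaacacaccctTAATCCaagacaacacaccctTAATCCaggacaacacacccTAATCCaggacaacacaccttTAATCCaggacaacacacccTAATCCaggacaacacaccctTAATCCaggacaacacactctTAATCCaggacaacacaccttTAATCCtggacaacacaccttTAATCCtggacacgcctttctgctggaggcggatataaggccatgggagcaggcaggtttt
Eif4a3l1: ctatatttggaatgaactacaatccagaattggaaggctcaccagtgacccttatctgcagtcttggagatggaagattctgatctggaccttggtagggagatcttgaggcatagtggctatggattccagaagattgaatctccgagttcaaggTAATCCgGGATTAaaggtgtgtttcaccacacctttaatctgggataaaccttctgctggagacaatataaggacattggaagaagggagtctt
Usp17la: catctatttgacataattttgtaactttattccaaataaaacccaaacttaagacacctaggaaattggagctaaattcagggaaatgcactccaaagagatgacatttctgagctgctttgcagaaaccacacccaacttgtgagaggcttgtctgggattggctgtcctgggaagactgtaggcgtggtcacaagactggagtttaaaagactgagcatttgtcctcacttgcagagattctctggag
Usp17lc: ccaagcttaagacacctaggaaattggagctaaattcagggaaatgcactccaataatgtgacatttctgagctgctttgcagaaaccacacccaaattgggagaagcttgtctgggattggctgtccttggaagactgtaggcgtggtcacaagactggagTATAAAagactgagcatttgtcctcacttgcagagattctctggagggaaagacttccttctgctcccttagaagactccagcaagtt
The windows lie at chr4:90218570-90218819 for Zfp352, chr6:136327289-136327538 for Eif4a3l1, chr7:104856766-104857015 for Usp17la and chr7:103416446-103416695 for Usp17lc.

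TAATCC is a core bound by paired-like homeodomain proteins. The Zfp352 window held it 9 times, all on the forward strand and spaced 20 to 21 bases apart, within a tandem repeat. Of 32851 windows of the same length over all genes, 6.25% held the string at least once, and 1 window, that of Zfp352, held it 9 times. The Eif4a3l1 window held it 2 times, and the windows of Usp17la, Usp17lc, Pramel19 and Pramel20 did not hold it. TATAAA, a string of the TATA box, was in 12.4% of all windows. The windows of Usp17lc and Pramel20 held it, starting 88 and 38 bases before the gene. It was counted at any position in the window, and variants of it were not searched. A match is therefore not taken as a TATA box, nor its absence as the lack of one. The double homeodomain motif of DUX was in 0.0304% and the ZSCAN4 string TGCACAC in 3.67% of all windows, and neither was in a window of the 6 genes. All 4 strings were searched on both strands, and none of them contains another. The upstream windows of Usp17la and Usp17lc were 95.2% identical over 208 aligned bases, and the pairs with Usp17lb and Usp17ld, 2 further copies, were 92.1% to 97.3% identical. In the RefSeq gene order, Tdpoz3 had 6 genes of its family among its 3 neighbours on each side, Tdpoz2, Obox6 and Pramel20 had 3, Usp17la had 2 and Pramel19 had 1.

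Prmt1 stood at 38.6% of the siSCR level in undifferentiated cells, 64.6% at day 4, 46.2% with DMSO and 36.7% with ATRA (limma, Benjamini-Hochberg adjusted p from 5.0e-14 to 3.2e-07). The mean of 10 pluripotency markers lay between 12.30 and 12.58 on the log2 scale in the 6 undifferentiated arrays. The 6 siSCR arrays with DMSO or ATRA stood apart from the other 18 in spread: their values over all genes had an SD of 1.98 to 2.07, against 2.15 to 2.27. They correlated with the other 18 arrays at 0.951 to 0.973, and replicates within a group correlated at 0.990 to 0.999. Correlations between groups among the other 18 arrays were not computed. The correlations alone therefore do not show that the 6 arrays stand apart. A difference that crosses this border cannot be told apart from the group, and without those arrays no such comparison can be made.

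Zfp352, a zinc finger gene, had log2 values of 10.21, 10.16 and 10.01 in the 3 undifferentiated siSCR arrays and of 8.34, 8.50 and 8.47 in the 3 siPRMT1 arrays. The groups lay 1.51 apart at their nearest arrays, and the siPRMT1 mean was 31.0% of the siSCR mean (log2 difference -1.69, SE 0.09). Obox6, a homeobox gene of the oocyte and early embryo, had values of 8.94, 8.00 and 8.51 in siSCR and of 7.20, 7.08 and 7.30 in siPRMT1. The siSCR arrays of Obox6 spread more widely, and the siPRMT1 mean was 41.0% of theirs (-1.29, SE 0.27).

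Tdpoz2 and Tdpoz3 encode proteins with a TRAF-like and a POZ domain. Tdpoz3 read 10.93, 10.70 and 10.69 in siSCR and 9.45, 9.29 and 8.97 in siPRMT1. Tdpoz2 read 9.58, 8.74 and 9.23 in siSCR and 7.51, 7.75 and 7.65 in siPRMT1. Neither gene had overlapping groups, and the 2 siPRMT1 means stood at 34.4% and 34.2% of the siSCR means.

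Usp17la and Usp17lc belong to the DUB family of cytokine-inducible deubiquitinating enzymes. Usp17lc read 10.24, 10.10 and 10.15 in siSCR and 9.06, 8.65 and 8.68 in siPRMT1. Usp17la read 9.79, 9.11 and 9.36 in siSCR and 8.14, 8.14 and 7.56 in siPRMT1. The siPRMT1 means were 38.8% of the siSCR mean for Usp17lc and 35.9% for Usp17la, again without overlap of the arrays.

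Eif4a3l1 is a copy of Eif4a3, which encodes the helicase of the exon junction complex. Its values were 10.86, 9.76 and 10.50 in siSCR and 8.73, 8.26 and 8.12 in siPRMT1. The groups did not overlap, and the difference of -2.00 (SE 0.23) was the largest decrease of all 19938 genes. The parent gene Eif4a3, by its own probe set, fell by 0.24 (limma).

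Tcstv3 belongs to the 2-cell-stage variable group family. It read 7.94, 7.77 and 7.57 in siSCR and 6.57, 6.57 and 6.60 in siPRMT1, so that the siPRMT1 arrays lay close together, with an SD of 0.02. Its mean of 44.1% (-1.18, SE 0.09) was the smallest decrease of the 10 genes.

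Pramel19 and Pramel20 belong to the PRAME family of leucine-rich repeat proteins. Pramel19 read 10.18, 9.32 and 9.53 in siSCR and 8.27, 8.10 and 7.98 in siPRMT1. Pramel20 read 9.17, 8.26 and 8.01 in siSCR and 6.25, 6.99 and 7.21 in siPRMT1. Pramel20 had the widest spread of the 10 genes in undifferentiated cells, with an SD of 0.61 in siSCR and 0.50 in siPRMT1, and its 2 groups still lay 0.80 apart.

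Over the 10 genes the median difference was -1.54, against 0.01 over all genes, and for 10 of 10 every siPRMT1 array was lower than every siSCR array. Such a separation downward was found for 20% of all genes, and limma called 18.8% of all genes in either direction. The genes were chosen on this difference, so nothing is read from these counts.

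**Figure D1:**
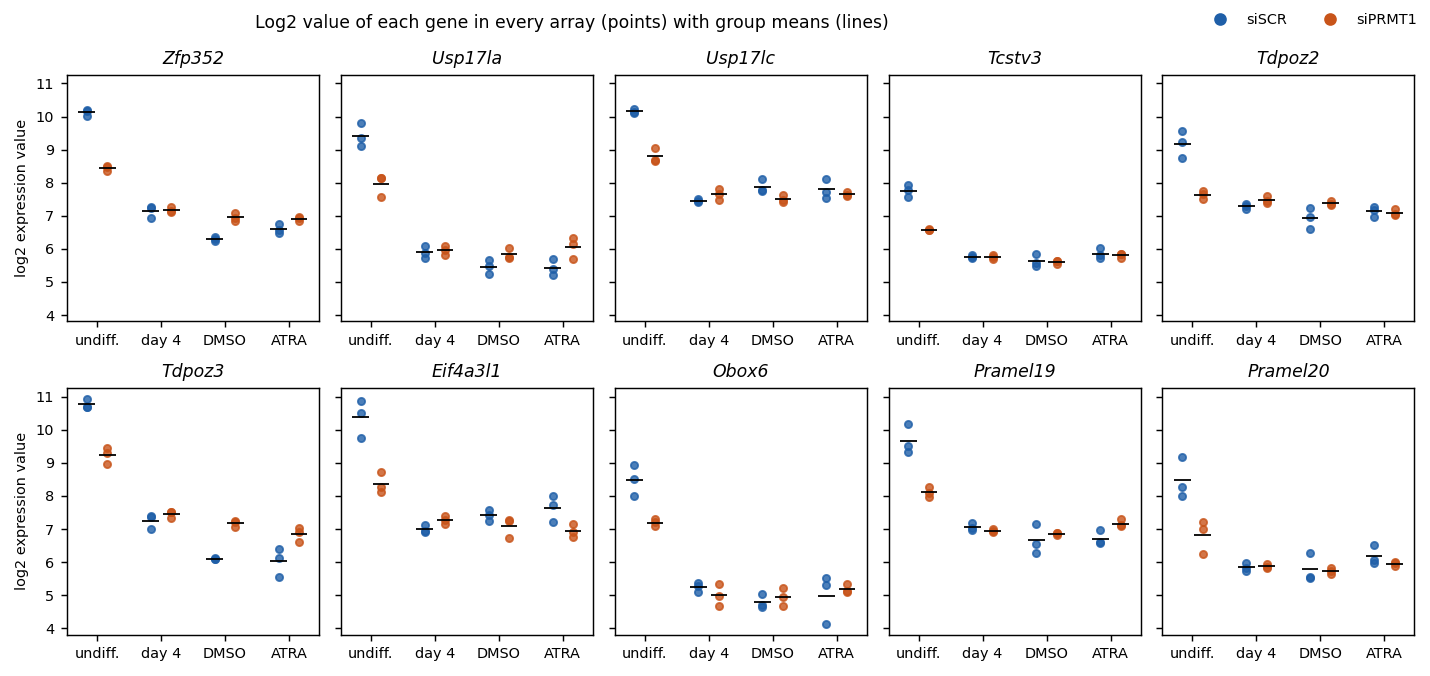
Log2 expression value of each of the 10 genes (1 panel a gene) in every array, by state on the horizontal axis, with siSCR in blue, siPRMT1 in orange and lines at the group means. In all 10 panels the undifferentiated siSCR arrays are highest and the mean of the undifferentiated siPRMT1 arrays is next, above the 6 embryoid body means, though for Tdpoz2 and Pramel20 its arrays overlap with embryoid body arrays.

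All 10 genes had the same 2 groups on top, undifferentiated siSCR first and undifferentiated siPRMT1 next. The 6 embryoid body groups had no common order, and their means lay within 0.26 (Tcstv3) to 1.41 (Tdpoz3) of each other. For 8 of the 10 genes all 3 undifferentiated siPRMT1 arrays lay above all 18 embryoid body arrays. For Tdpoz2 and Pramel20 the lowest siPRMT1 array lay below the highest embryoid body array, by 0.09 and 0.25, and these neighbours in the order overlapped. Between undifferentiated siSCR cells and siSCR embryoid bodies of day 4, the difference ran from -1.90 (Tdpoz2) to -3.53 (Usp17la), with a median of -2.84 against 0.00 over all genes. Usp17la went from a mean of 9.42 to 5.90, which is 8.7% of the undifferentiated level, and Tdpoz3 from 10.77 to 7.25, also 8.7%. The siSCR day 4 mean of Usp17la lay above only 15.1% of all genes, and without detection calls its 8.7% is not taken as a residual level. The arrays did not overlap for 10 of 10 genes, a separation downward that 20% of all genes had. In siPRMT1 cells, whose starting level was lower, the median difference was -1.16, against -0.04 over all genes, and ran from -0.16 (Tdpoz2) to -2.19 (Obox6). There, 9 of 10 genes had arrays that did not overlap, against 28.9% of all genes. Both day 4 differences share undifferentiated arrays with the values on which the genes were chosen, those of siSCR in the former and of siPRMT1 in the latter. Both are a description only.

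Between replicates of undifferentiated siSCR cells, the 10 genes shared the highest array but not the lowest. Array 1 was the highest of the 3 for 10 of 10 genes, by a median of 0.38 above the group mean, while it was the highest for 31.8% of all genes and its median deviation over all genes was -0.02. Array 2 was the lowest for 6 of the 10 and array 3 for the other 4. The median SD of the 10 genes in this group was 0.38, against 0.09 over all genes. Single genes ran from 0.07 (Usp17lc) and 0.10 (Zfp352) to 0.61 (Pramel20). In undifferentiated siPRMT1 cells no array led: arrays 1, 2 and 3 were highest for 4, 3 and 3 genes, and the median SD was 0.19, again against 0.09. In the 6 embryoid body groups, the median SD of the 10 genes ran from 0.10 to 0.26, against 0.06 to 0.14 over all genes. The genes were chosen on the undifferentiated arrays, and copies of a family may share probes, so the 10 genes are not independent observations. Leaving out the undifferentiated arrays in turn, the median knockdown difference of the 10 genes ran from -1.65 to -1.32. The list of 8 germ cell markers also had array 1 highest in siSCR for 7 genes, whereas array 1 was highest for 4 and lowest for 10 of the 20 fibroblast markers. Of 25 other measured genes of the 2-cell programme, array 1 was highest for 12 and lowest for 8, with a median deviation of 0.02.

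**Figure D2:**
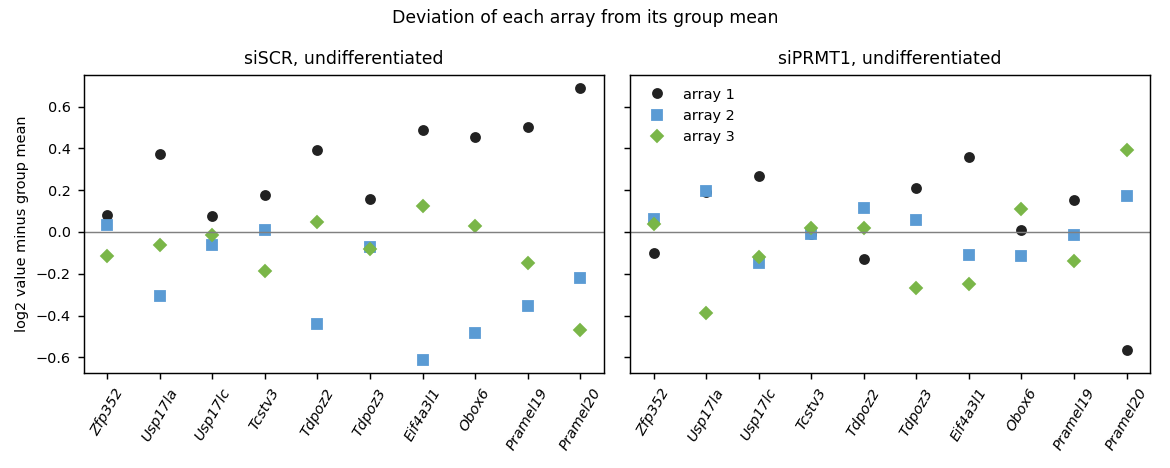
Log2 value of each array minus the mean of its group, for the 10 genes along the horizontal axis, in undifferentiated siSCR (left) and siPRMT1 cells (right), with 1 symbol per replicate array. On the left, array 1 lies above 0 and highest for all 10 genes, and on the right the 3 arrays change places from gene to gene.

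Over the 24 arrays, the correlation of each gene with the mean of the other 9 was 0.92 (Tdpoz2) to 0.98 (Pramel19). Over the 18 arrays without siSCR DMSO and ATRA it was 0.93 (Tdpoz2) to 0.99 (Zfp352). These values describe arrays of 8 groups, which share the step between undifferentiated cells and embryoid bodies.

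At day 4, the siPRMT1 and siSCR arrays compared are not those on which the genes were chosen, but the fit of all 8 groups takes its spread from the undifferentiated arrays too, where the median SD of the 10 genes was 0.38 in siSCR, against 0.12 in siSCR at day 4. In the fit of all groups no difference between siPRMT1 and siSCR was detected for the 10 genes in these embryoid bodies, and a fit of these 2 groups alone called Eif4a3l1 higher. Zfp352 read 6.92, 7.28 and 7.25 in siSCR and 7.25, 7.13 and 7.16 in siPRMT1, a difference of 0.03 (95% interval -0.16 to 0.22). Tcstv3 read 5.72, 5.80 and 5.77 in siSCR and 5.71, 5.80 and 5.75 in siPRMT1, a difference of -0.01 (-0.20 to 0.18). Both genes had overlapping arrays. The day 4 mean of Tcstv3 lay above only 13.5% of all genes in siSCR and 14.0% in siPRMT1. Without detection calls, its narrow interval at such low values does not bound a change. The differences of the 10 genes ran from -0.25 (Obox6) to 0.29 (Eif4a3l1) with a median of 0.05, against -0.02 over all genes. Limma called 0 of 10, of which 0 had an unadjusted p under 0.05, while it called 18.4% of all genes. A fit without the 6 undifferentiated arrays, added after the data were seen, also called 0, with 0 at an unadjusted p under 0.05, and 16.2% of all genes. A fit of only these 2 groups, in which 3 of the 10 genes had an unadjusted p under 0.05 and 20.6% of all genes were called, called 1 of 10. This was Eif4a3l1, which read 7.13, 6.94 and 6.91 in siSCR and 7.41, 7.27 and 7.17 in siPRMT1, a difference of 0.29 with an SE of 0.08 in that fit (limma adjusted p = 0.040) and of 0.23 in the fit of all groups (limma adjusted p = 0.45). Tdpoz2 and Eif4a3l1 had 3 siPRMT1 arrays above the 3 siSCR arrays, a separation upward that 21.5% of all genes had. The 95% intervals of the 10 genes reached from -0.81 to 0.77, so differences within them are not excluded. With 3 against 3 arrays an exact permutation test cannot give a p below 0.1.

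**Figure D3:**
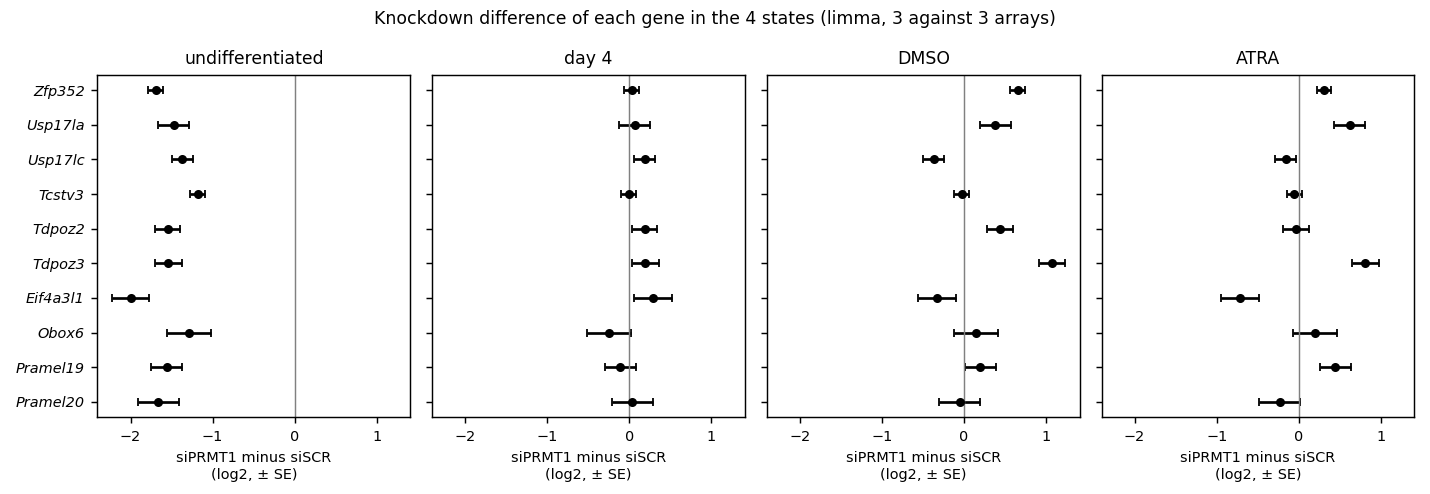
Log2 difference of siPRMT1 minus siSCR for each of the 10 genes in the 4 states, with bars of ± 1 SE from limma (3 against 3 arrays a state). The undifferentiated panel, on which the genes were chosen, has all points between -2.00 and -1.18, and the day 4 panel has all points between -0.25 and 0.29.

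With DMSO, 3 of the 10 genes were called higher and 1 lower in siPRMT1, while limma called 65.9% of all genes, 31.3% higher and 34.6% lower. Tdpoz3 read 6.09, 6.13 and 6.09 in siSCR and 7.24, 7.06 and 7.22 in siPRMT1, a rise of 1.07 (SE 0.16, limma adjusted p = 9.2e-06). Zfp352 read 6.31, 6.36 and 6.23 in siSCR and 7.08, 6.92 and 6.85 in siPRMT1, a rise of 0.66 (SE 0.09, limma adjusted p = 2.4e-06). Neither gene had overlapping groups. Their siSCR means with DMSO lay above only 14.7% (Tdpoz3) and 17.6% (Zfp352) of all genes. Tdpoz2 rose by 0.44 (SE 0.16, limma adjusted p = 0.018), and Usp17lc fell by 0.37 (SE 0.13, limma adjusted p = 0.015). The call of Tdpoz2 was lost without siSCR DMSO array 3 (0.28, limma adjusted p = 0.13) or siPRMT1 DMSO array 2 (0.41, limma adjusted p = 0.053). That of Usp17lc was lost without siSCR DMSO array 3 (-0.26, limma adjusted p = 0.10) or siPRMT1 DMSO array 3 (-0.32, limma adjusted p = 0.062). After quantile normalization 5 genes were called higher. The comparison crosses the border of the 6 arrays that stood apart, and the share of the 10 genes called was below that of all genes.

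With ATRA, 4 of the 10 genes were called higher and 1 lower in siPRMT1, against 70.1% of all genes called, 32.2% higher and 38% lower. Tdpoz3 read 6.14, 6.41 and 5.56 in siSCR and 7.03, 6.92 and 6.60 in siPRMT1, a rise of 0.81 (SE 0.16, limma adjusted p = 0.00021). Usp17la read 5.68, 5.22 and 5.40 in siSCR and 6.15, 6.32 and 5.69 in siPRMT1, a rise of 0.62 (SE 0.19, limma adjusted p = 0.0068). Both genes had all siPRMT1 arrays above all siSCR arrays. Their siSCR means with ATRA lay above only 12.6% (Tdpoz3) and 6.75% (Usp17la) of all genes. Without detection calls, the size of a rise from such low values is not bounded. Zfp352 rose by 0.31 (SE 0.09, limma adjusted p = 0.0053) and Pramel19 by 0.45 (SE 0.19, limma adjusted p = 0.040), and Eif4a3l1 fell by 0.71 (SE 0.23, limma adjusted p = 0.0098). The call of Pramel19 was lost without siSCR ATRA array 1 (0.38) or 2 (0.39), without siPRMT1 ATRA array 1 (0.47) or 2 (0.38), with limma adjusted p up to 0.12, and after median centring (0.38, limma adjusted p = 0.074). Eif4a3l1 lost its call without siSCR ATRA array 3 (-0.53, limma adjusted p = 0.064). Zfp352 and Tdpoz3 were called higher with both DMSO and ATRA, in comparisons whose siSCR arrays all belong to the 6 that stood apart.

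ATRA against DMSO within a form asks whether 12 h of retinoic acid moved these genes, and it crosses no border in either form. In siSCR, Zfp352 was called higher and no other gene, while limma called 23.4% of all genes, 11.2% higher. Zfp352 read 6.31, 6.36 and 6.23 with DMSO and 6.74, 6.47 and 6.59 with ATRA, a rise of 0.30 (SE 0.09, limma adjusted p = 0.021) without overlap. The call was lost without siSCR DMSO array 3 (0.27, limma adjusted p = 0.069) or siSCR ATRA array 1 (0.23, limma adjusted p = 0.092), and 2 genes were called without siSCR DMSO array 2 or without siSCR ATRA array 3. It was also lost under 5 alternatives, where its difference ran from 0.19 to 0.30 (limma adjusted p from 0.059 to 0.28). In siPRMT1, limma called 0 of the 10 genes and 12% of all genes, and 1 gene, Tcstv3, had an unadjusted p under 0.05. Tcstv3 read 5.53, 5.63 and 5.63 with DMSO and 5.84, 5.72 and 5.85 with ATRA, a difference of 0.20 (95% interval 0.01 to 0.40, limma adjusted p = 0.18). The 10 differences in siPRMT1 ran from -0.33 to 0.30, with 95% intervals between -0.67 and 0.80, and limma with array weights called 4 genes, 2 in each direction. The test of the difference between the ATRA responses of both forms called 0 of 10 genes and 3.24% of all genes (limma), and 2 of the 10, Zfp352 (-0.35) and Tdpoz2 (-0.47), had an unadjusted p under 0.05. The intervals of that difference reached from -1.06 to 0.84.

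DMSO against untreated embryoid bodies was compared as the vehicle control. In siPRMT1 all 10 genes had a negative difference with DMSO, from -0.27 (Tdpoz3) to -0.06 (Obox6), with a median of -0.14 against 0.00 over all genes, and only the sign of Obox6 turned, with the mean of its 2 probe sets, under the scalings and probe set means tried. Limma called 0 of 10 and 0.461% of all genes, and Zfp352 alone had an unadjusted p under 0.05 (-0.23, 95% interval -0.42 to -0.04, limma adjusted p = 0.46). Zfp352 read 7.25, 7.13 and 7.16 untreated and 7.08, 6.92 and 6.85 with DMSO, without overlap. Arrays did not overlap for 4 of the 10 genes, lower with DMSO, against 14.4% of all genes. In siSCR, where the comparison crosses the border, Usp17lc rose by 0.42 (SE 0.13, limma adjusted p = 0.0077), Zfp352 fell by 0.85 (SE 0.09, limma adjusted p = 6.6e-08) and Tdpoz3 fell by 1.15 (SE 0.16, limma adjusted p = 3.9e-06), and limma called 61.1% of all genes, 30.8% higher and 30.3% lower. After quantile normalization 7 of the 10 genes were called lower there, and 5 in the fit without the undifferentiated arrays. The rise of Usp17lc was lost without siSCR DMSO array 3 (0.31, limma adjusted p = 0.058), and without siSCR DMSO array 2 limma called 4 genes lower in place of 2. A test of whether the knockdown difference itself was the same with DMSO and untreated called 2 of the 10 genes higher with DMSO and 1 lower, namely Zfp352, Tdpoz3 and Usp17lc, against 44.6% of all genes called, 25.1% higher and 19.5% lower. It crosses the border as well.

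Probe sets beside the ones used did not always follow them. Obox6 had a second set with a mean of 5.49 over the 24 arrays and that set differed by 0.07 between undifferentiated siPRMT1 and siSCR cells, where the brighter set differed by -1.29. The second set of Tdpoz2 differed by -0.36, against -1.55 for the one used. The other 8 genes had 1 set each. Sets annotated to several symbols can only be read for a family. One set of 4 Usp17l genes averaged 11.25 in undifferentiated siSCR and 10.26 in siPRMT1 cells. Of 5 sets shared by Tdpoz genes, whose values come in 3 distinct versions, the differences were -0.64 to -1.42. The 5 sets shared by Obox genes lay between 5.16 and 6.16 in siSCR and differed by -0.27 to -0.01, and 2 sets shared by Eif4a3 and its copy lay above 12 and differed by -0.36 and -0.43.

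The Zscan4 family, whose proteins mark the state and act on telomeres, was measured by 3 sets of 5 symbols each. In undifferentiated siSCR arrays they lay between 13.29 and 13.57, and in siPRMT1 arrays between 12.62 and 13.00. The undifferentiated siPRMT1 arrays were lower in all 3 sets, by 0.58 to 0.68 in the mean, at values near the top of the range of all arrays. At day 4 the siSCR means were 10.26 to 10.78, and siPRMT1 lay lower by 0.41 to 0.42. In the comparisons that cross the border, siPRMT1 lay higher. The means with DMSO were 8.88 to 9.39 in siSCR and 9.70 to 10.21 in siPRMT1. With ATRA they were 9.30 to 9.81 and 10.09 to 10.59. These sets were not part of the tested genes, and no test was made.

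Among 19 close copies of the 10 genes with a probe set of their own, limma called 2 higher and 5 lower in undifferentiated siPRMT1 cells, against 18.8% of all genes called. Usp17lb read 10.51, 10.11 and 10.15 in siSCR and 9.04, 8.76 and 8.89 in siPRMT1, a fall of 1.36. Usp17ld fell by 1.08, Pramel17 by 1.10 and Pramel6 by 1.07, while Pramel1 rose by 0.39 and Pramel13 by 0.23. Copies of a family may share sequence with the members' probes, and the members were chosen on the undifferentiated comparison. The counts and differences of the copies in undifferentiated cells are therefore a description, and nothing is read from them. At day 4 Pramel12 was the only one of the 19 copies called, higher by 0.41, against 18.4% of all genes called. Usp17ld read 11.55 to 12.38 in the 6 siSCR arrays with DMSO or ATRA and 6.72 to 9.29 in the other 18. Its difference of siPRMT1 minus siSCR was -5.34 with DMSO and -4.92 with ATRA. Within siPRMT1 cells, DMSO differed from untreated by only -0.20. With DMSO 1 copy was called higher and 10 lower in siPRMT1, and with ATRA 2 higher and 9 lower, in the comparisons that cross the border. The shares over all genes were 31.3% higher and 34.6% lower with DMSO, and 32.2% higher and 38% lower with ATRA.

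A wider list of the 2-cell programme without the 10 genes had 40 symbols, of which 25 were measured, 18 of them close copies. In undifferentiated siPRMT1 cells 2 rose, 9 fell and 14 did not pass the test, with a median of -0.11 against 0.01 over all genes and 18.8% of all genes called. Outside the copies, Arg2, an arginase, fell by 1.33 (SE 0.10), and Tmem92, a transmembrane protein gene, fell by 0.86 (SE 0.16). Ubtfl1, an HMG-box gene, fell by 0.62, Spz1 by 0.58 and Ddit4l by 0.48. The list was drawn up with earlier results of these data known, and the 10 genes were chosen on this comparison. The counts and differences of the list in undifferentiated cells are therefore a description. At day 4, 3 rose and 0 fell, namely Arg2 (0.43), Pramel12 (0.41) and Eif1ad (0.32), with a median of 0.02 and 18.4% of all genes called. Pramel12 and Eif1ad entered the list by the start of their symbols alone, which does not show that they belong to the programme. From undifferentiated cells to day 4 in siSCR, 1 rose and 12 fell, against 28.2% of all genes called, where Tmem92 fell by 3.26 and Arg2 fell by 3.01. With ATRA, Tmem92 rose by 0.54 in siSCR and by 0.64 in siPRMT1, where Pramel1, Pramel13 and Pramel7 also rose, by 0.28 to 0.39.

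Of 9 activators of the state listed, 4 were measured. In undifferentiated siPRMT1 cells, where limma called 18.8% of all genes, Dppa4 rose by 0.26 and Obox5 was not called. Dppa2, the partner of Dppa4 in switching on Dux, fell by 0.25, and Nelfa, a subunit of the negative elongation factor, fell by 0.31. At day 4 limma called 0 of the 4, of which 1, Dppa4, had an unadjusted p under 0.05, and 18.4% of all genes. Repressors are the chromatin, DNA methylation and SUMO factors that keep the state rare. Of 28 measured, 1 rose and 6 fell in undifferentiated siPRMT1 cells, against the same 18.8% of all genes called. Their median was -0.02, and no fall exceeded 0.28 (Atrx). Setdb1, a histone methyltransferase that silences retroviral elements, fell by 0.25 and Max fell by 0.24, and Kat5, the one that rose, rose by 0.18. At day 4, where 18.4% of all genes were called, 8 rose and 1 fell, among them L3mbtl2 by 0.39, Daxx by 0.34 and Ep400, the one that fell, by 0.25.

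Marker lists of other cell types were counted between the same undifferentiated groups, where limma called 18.8% of all genes. Of 20 fibroblast and feeder markers, 11 fell and 0 rose in siPRMT1, S100a4 and Prrx1 by 1.01 each, Acta2 by 0.96 and Thy1 by 0.83. The mean of the list lay between 9.36 and 9.43 in the siSCR arrays and between 9.08 and 9.10 in the siPRMT1 arrays, and no marker is at 0, since arrays report a background value for each set. At day 4 the ranges were 8.44 to 8.60 in siSCR and 8.31 to 8.34 in siPRMT1, where 1 marker rose and 9 fell, against 18.4% of all genes called. Of 10 interferon-response genes, 8 fell and 1 rose in undifferentiated siPRMT1 cells, with means of 9.05 to 9.17 in siSCR and 8.59 to 8.65 in siPRMT1. Of the pluripotency markers 6 of 10 rose and 0 fell, with means of 12.30 to 12.36 in siSCR and 12.53 to 12.58 in siPRMT1. Of 8 germ cell markers 2 rose, Sycp3 by 0.90 and Ddx4 by 0.66, with means of 7.75 to 8.09 in siSCR and 8.11 to 8.21 in siPRMT1. The part of these lists in the difference of the 10 genes was not tested. Of 8 trophoblast markers 1 rose and 0 fell. The early differentiation markers had 2 of 9 higher and 1 lower in undifferentiated siPRMT1 cells, and 8 of 9 higher at day 4.

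**Figure D4:**
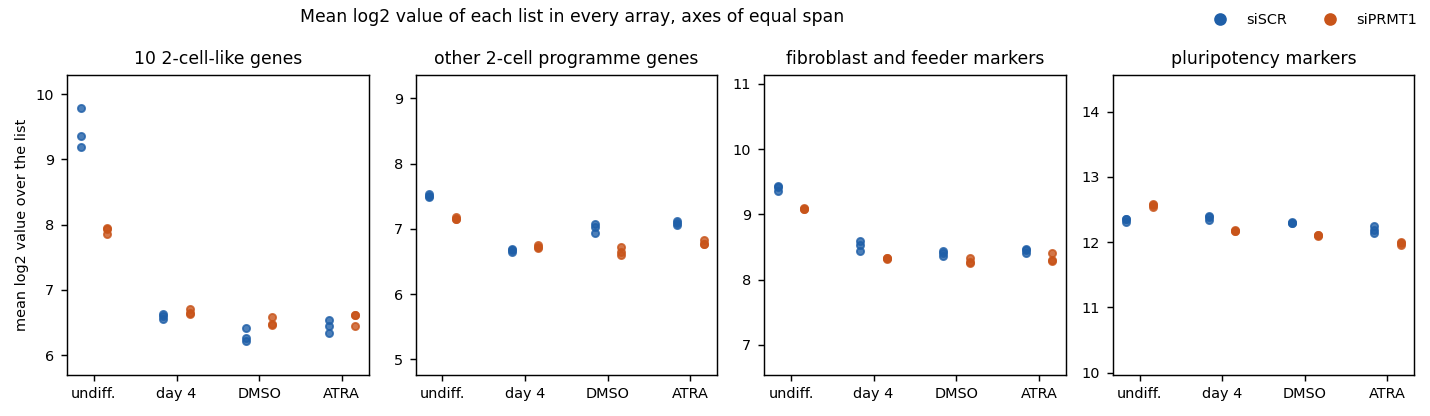
Mean log2 value over each of 4 gene lists in every array, by state, with siSCR in blue and siPRMT1 in orange, and vertical axes of equal span but different position. The 10 genes run from 9.19 to 9.78 in undifferentiated siSCR and from 7.85 to 7.95 in siPRMT1 arrays, and the 20 fibroblast and feeder markers from 9.36 to 9.43 and from 9.08 to 9.10. The 10 genes were chosen on the difference between these groups.

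The genes whose values followed the mean of the 10 most closely over the 24 arrays, passing over the copies and predicted genes, were Ccl3, Slit2, Loxl4, Tgfb3, Arsb, Pak3, Ddr2 and Lrrk2. Their Pearson correlations with that mean were 0.97 to 0.98 over 24 arrays and 0.98 to 0.99 over the 18 arrays without siSCR DMSO and ATRA, and 239 of 19938 genes had a correlation over 0.9. All these arrays share the step from undifferentiated cells to embryoid bodies. Ccl3, a chemokine, had means of 10.27 in undifferentiated siSCR, 8.85 in siPRMT1, and 6.94 in both forms at day 4. Lrrk2, a kinase, had means of 8.19, 7.33, 6.66 and 6.67 in the same order. In undifferentiated siPRMT1 cells all 8 had arrays that did not overlap with siSCR, with differences of -0.57 (Pak3) to -1.42 (Ccl3), and their choice by likeness over these arrays makes this a description only. Among the 3 siSCR arrays, array 1 was the highest for 6 of the 8 genes, with a median deviation of 0.05.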

How the data were processed

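The 24 arrays are Affymetrix whole-transcript arrays of total RNA, grouped by the labels into 8 groups of 3. The table deposited by the authors holds 1 log2 expression value per probe set and array. Values ran from 2.14 to 14.5, which set the log base, and the sources used here do not give how probes were summarised and normalized. Array medians ran from 7.47 to 7.67, no detection calls were used, and the number of arrays limits the precision. Of 35556 probe sets, 21789 had 1 gene symbol, 1621 several and 12146 none in the probe annotation, and probes shared within families were not analysed here. The brightest set stood for each of 19938 genes. Differences were fitted in limma 3.58.1 (R 4.3.3) with 1 fit of 8 group means (16 residual degrees of freedom), Benjamini-Hochberg adjustment over all genes and calls at an adjusted p under 0.05. The scripts were tested on simulated data. A fold is given as percent of control or as a log2 difference.

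The 10 genes and the gene lists were chosen with earlier results of these data known. The text names the 10 genes, their close copies (called ones by name), called genes of the lists (at most 6 a list and comparison by size; Kat5 and Ep400 were named after their values were seen) and the 8 most alike genes by correlation. The test of the difference between the DMSO effects of both forms was added after the data were seen. Promoter windows came from RefSeq through Biopython 1.88, with build GRCm38.p6, and protein sequences were not used here. Replicate numbers did not pair the arrays (mean correlation of deviations 0.02 for equal numbers, from -0.50 to 0.61), so no replicate block was used. Each comparison was repeated under the alternatives of the closing section.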

Additional observations from a re-analysis of the deposited data

Results flagged for a closer look

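The knockdown difference of 3 genes was not the same in untreated and in DMSO-treated embryoid bodies, by a test of the difference between the 2 differences (limma, adjusted over all genes, added after the data were seen). It was larger with DMSO for Zfp352, by 0.63 (SE 0.13, limma adjusted p = 0.00042), and for Tdpoz3, by 0.88 (SE 0.23, limma adjusted p = 0.0040). For Usp17lc it was lower with DMSO, at -0.56 (SE 0.18, limma adjusted p = 0.016), a call that was lost without siSCR DMSO array 3 (-0.45, limma adjusted p = 0.053). The test called 44.6% of all genes and uses siSCR DMSO arrays, which stood apart from most other arrays.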

How the results depend on the processing

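Alternatives were a replicate block, quantile normalization, median centring with and without scaling to 1 SD, without the dimmest 25% of genes (which kept 6 of the 10), the mean of probe sets, a trend with robust variance, array weights, only the groups compared, without the 6 siSCR arrays where possible, and without each array. A fit without the 6 undifferentiated arrays was added after the data were seen and gave 5 genes lower for DMSO in siSCR. No called difference and no median reported for the undifferentiated comparisons reversed under the alternatives run, while 14 of 74 differences that were not called changed sign under a scaling or the mean of probe sets. The replicate block changed no count of called genes by more than 1.5 times, at 0 genes called for the day 4 knockdown. Only the groups compared gave 1 gene higher at day 4, 1 higher and 1 lower for ATRA in siPRMT1, 2 lower for the DMSO difference of differences, and 2 higher and 4 lower for DMSO in siSCR. Quantile normalization gave 5 higher for the DMSO knockdown, 7 lower for DMSO in siSCR and 0 higher for ATRA in siSCR. The latter was also 0 under median centring, median centring to 1 SD, array weights and only the groups compared. Array weights gave 2 higher and 2 lower for ATRA in siPRMT1 and 1 lower for DMSO in siPRMT1, and the trend with robust variance 5 lower for DMSO in siSCR. Leaving out arrays, the calls ranged from 0 to 1 lower for the DMSO knockdown, the ATRA knockdown and the DMSO difference of differences, from 0 to 2 higher for ATRA in siSCR, and from 0 to 1 higher and 2 to 4 lower for DMSO in siSCR. The cause was not tested. Of single-gene values called, 254 kept their call under an alternative and 19 lost it. Centring moved the median of all genes for the DMSO knockdown from -0.09 to -0.18. Without detection calls, values near background bound no change. Examples are those of Obox6, Tcstv3, Usp17la and Pramel20 in embryoid bodies, and of Tdpoz3 in siSCR with DMSO or ATRA.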
